A study of Homo sapiens with 18 samples.

Results

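The genes described here are 10 parts of the machinery that builds the mitotic spindle and splits the cell: the mitotic kinesins KIF11, KIF14, KIF20A, KIF23, KIF2C and KIF4A, and their microtubule-binding partners ASPM, SPAG5, TPX2 and PRC1. They form a list of names that was drawn up with earlier results of these data known, so the shares of them that differ are not independent of that choice. Each was read from the array probe set that carries its symbol alone, taking the one with the highest mean where there were several, and all 10 were found among the 18417 genes measured. Values are deposited signals on a log2 scale, so a difference of 1 is a doubling.

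The arrays measured RNA from HUVEC, human umbilical vein endothelial cells obtained from ATCC. In 4 groups the cells were co-cultured for 3 days with extracellular vesicles (EVs), small membrane particles shed by cells, which had been captured on antibodies to CD63 or to MHC class 1. The EVs came from the T cell leukaemia line Jurkat (groups Jurkat CD63+ and Jurkat MHC1+) or from JinB8, a CD47-deficient line derived from it (groups JinB8 CD63+ and JinB8 MHC1+). A control group received IgG beads without EVs, and a further group was untreated HUVEC, for which the labels give no culture time. Each of the 6 groups has 3 arrays. Conditioned medium from the flasks of a T cell line was pooled before its EVs were purified, per the labels' protocols, and CD47 deficiency is represented by a single line. In 5 of the 6 JinB8 arrays the free text ends the line's name in another number, while the bracketed name reads JINB8 in all 6. Whether replicate arrays stem from independent cultures is not stated, so every p-value here reflects spread between arrays that may be technical only.

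Kinesins are motor proteins that walk along microtubules or take them apart, using ATP. In mitosis they push the spindle poles apart, correct the attachment of chromosomes and bundle the microtubules of the midzone, where the cleavage furrow then forms. Their partners focus the spindle poles, start microtubule growth near chromosomes and cross-link the midzone. Messenger RNA of most of these genes builds up in late S and G2 phase and is low in resting cells, and endothelial cells in culture divide until they are dense or starved of growth factors.

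Over all genes 2 arrays stood apart, the third array with IgG beads and the third of untreated cells. Their median correlation with the other arrays over all genes was 0.636 and 0.649, against at least 0.947 for each of the other 16. Their spread of signal was also smaller, with SDs of 1.57 and 1.56, against 2.01 to 2.25. In the 2 arrays the mean of 12 endothelial markers was 6.34 and 7.18, against 8.92 to 9.09 in the other 16 arrays. The mean of 11 T cell markers was 5.01 and 4.92, against 3.87 to 4.34, and that of 6 epithelial markers 6.21 and 6.30, against 5.08 to 5.54. For 6 of the 10 spindle genes both arrays lay below all 16 others, and for KIF2C the bead array lay above them all. The comparisons with beads and between groups are given over all 18 arrays and over the 16 without these 2, which leaves 2 arrays in each control group. The choice to give both was made together with the list of genes. Counts of arrays that do not overlap, ranks of groups, the contrast with pooled controls and the likeness of other genes use the 16 arrays only. In the 16 arrays the cells carried endothelial markers: PECAM1 averaged 11.63 in the 12 EV arrays and 11.72 in the 4 control arrays, and CDH5 averaged 11.77 and 11.86. The lowest of the endothelial markers was CLDN5, at 6.21 and 6.19. The T cell gene CD3E averaged 3.63 in the EV arrays and 3.62 in the control arrays, and PTPRC, which encodes CD45, averaged 3.12 and 3.01. The highest of the T cell markers was LAT, at 5.87 and 5.94.

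Across the 16 arrays the 10 genes tended to go up and down together, KIF2C least so. The median Pearson correlation over their 45 pairs was 0.80, with a range of 0.31 to 0.96, and all the pairs share the same 16 arrays and the same group differences. Among the 12 EV arrays alone the median was 0.66, with a range of -0.10 to 0.91, and the median of KIF2C with the others was 0.12. Over the 16 arrays KIF2C was the least like the others, with a median correlation of 0.45 with them, while ASPM was the most alike with 0.86. Over all 18 arrays the median over the 45 pairs was 0.77, and that of KIF2C with the others was -0.14. The mean of the 10 genes also correlated with the spread of signal of the array (r = 0.52 over 16 arrays), whose part in the pattern was not tested.

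The promoter windows of the genes were searched for the cell cycle genes homology region (CHR), a short element next to the start site of many genes of G2 and mitosis. It is known to be bound by the DREAM complex, which silences these genes in resting cells, and by the MYB-MuvB complex with FOXM1, which activates them. The letters searched were TTTGAA on both strands (TTCAAA on the gene's own strand) and TTTAAA, which reads the same on both, together with CCAAT on both strands (ATTGG on the gene's own strand), the box bound by the factor NF-Y. RefSeq windows of build GRCh38.p14, from 250 bases before to 50 bases after the start site, were at hand for 9 of the 10 genes, TPX2 being the exception. A CHR in either form was found in 9 of 9, compared with 24% of all 35116 windows. TTTGAA was found in 7 of 9 (15.2% of all windows), TTTAAA in 5 of 9 (12.2%) and CCAAT in 7 of 9 (34.6%), and none of the matches overlapped. The nearest CHR of each gene lay within positions -55 to 9 from the start site, a span that 5.51% of all windows match and that was read off these genes. A match of letters does not show that a factor binds there. The genes were listed for their role in mitosis, so the shares with a CHR are not independent of that choice. Any part of these elements in the differences between arrays was not tested.

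In the stretches around the nearest CHR, the CHR is in capitals. Its first base lies at position -28 in KIF11, 2 in KIF14, -41 in KIF20A and -55 in KIF23. In KIF2C it lies at -3, in KIF4A at -34, in SPAG5 at 4 and in PRC1 at -20. The stretches end at different distances from the start site, which is not marked in them. For the motors they are KIF11 (chr10:92593080-92593129, plus strand), KIF14 (chr1:200620745-200620772, minus strand), KIF20A (chr5:138179049-138179098, plus strand), KIF23 (chr15:69414272-69414321, plus strand), KIF2C (chr1:44739812-44739839, plus strand) and KIF4A (chrX:70290048-70290097, plus strand). For the partners they are SPAG5 (chr17:28599017-28599044, minus strand) and PRC1 (chr15:90994536-90994577, minus strand). Each is written from 5′ to 3′ on the gene's own strand.
KIF11: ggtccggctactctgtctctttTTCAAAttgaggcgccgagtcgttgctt
KIF14: caatcagaaggcggggcgcccaTTCAAA
KIF20A: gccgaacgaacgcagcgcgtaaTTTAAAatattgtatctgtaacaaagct
KIF23: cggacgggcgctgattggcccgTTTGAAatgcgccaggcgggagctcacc
KIF2C: ttaaggacgcttgcgcgcgggaTTTAAA
KIF4A: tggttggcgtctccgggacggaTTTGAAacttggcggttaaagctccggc
SPAG5: caaccaggaagcgcagagcaggTTCAAA
PRC1: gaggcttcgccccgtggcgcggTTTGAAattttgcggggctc

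ASPM is shown over the whole 250 bases before its start site (chr1:197146670-197146919, minus strand), because in the 16 arrays it was the only one of the 10 genes called against the bead controls in more than 1 comparison and because its window holds the most CCAAT boxes, 4 of them. Capitals mark these boxes, here as ATTGG, and the CHR matches at positions -113 and -7.
ASPM: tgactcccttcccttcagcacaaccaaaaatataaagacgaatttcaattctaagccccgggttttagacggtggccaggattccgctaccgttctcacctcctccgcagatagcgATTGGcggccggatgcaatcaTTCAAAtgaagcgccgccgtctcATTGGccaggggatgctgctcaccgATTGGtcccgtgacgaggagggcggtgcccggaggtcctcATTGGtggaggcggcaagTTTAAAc

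The first question was whether EVs of either line and either capture changed the spindle genes relative to beads. Over the 16 arrays all 10 genes were lower on average in EV-treated HUVEC than with beads, by a median of 0.68 on the log2 scale, while the median of all genes differed by 0.01. Of all genes, 45.9% had a negative difference. ASPM fell in this fit, by 1.15 ± 0.18 (SE), which is 2.22-fold lower, with an adjusted p of 0.0268 from limma with Benjamini-Hochberg adjustment over 18417 genes. It was 1 of 3 genes called lower, 0.0163% of those tested. The other 9 were not called, although 9 of the 10 in all had an unadjusted p below 0.05, compared with 3.21% of all genes. Without bead replicate 1 only 4 of the 10 did (390 of all genes), and without bead replicate 2 all 10 did (355 of all genes). Over all 18 arrays limma called 0 of the 10 genes and 0.00543% of all genes. There, 1 of the 10 had an unadjusted p below 0.05 (3.83% of all genes), 8 were negative (55% of all genes), and their median difference was -0.25, against -0.06 for all genes. The call of ASPM rests on the 2 remaining bead arrays: without bead replicate 1 its difference was -1.06 with an adjusted p of 1.00, and without bead replicate 2 it was -1.25 with an adjusted p of 0.446. It was also lost when the 16 arrays were centred on their medians (adjusted p = 0.194) or quantile normalized again (adjusted p = 0.0759), with differences of -1.16 and -1.13. In these bulk samples fewer dividing cells and less RNA of these genes per cell cannot be told apart.

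**Figure D1:**
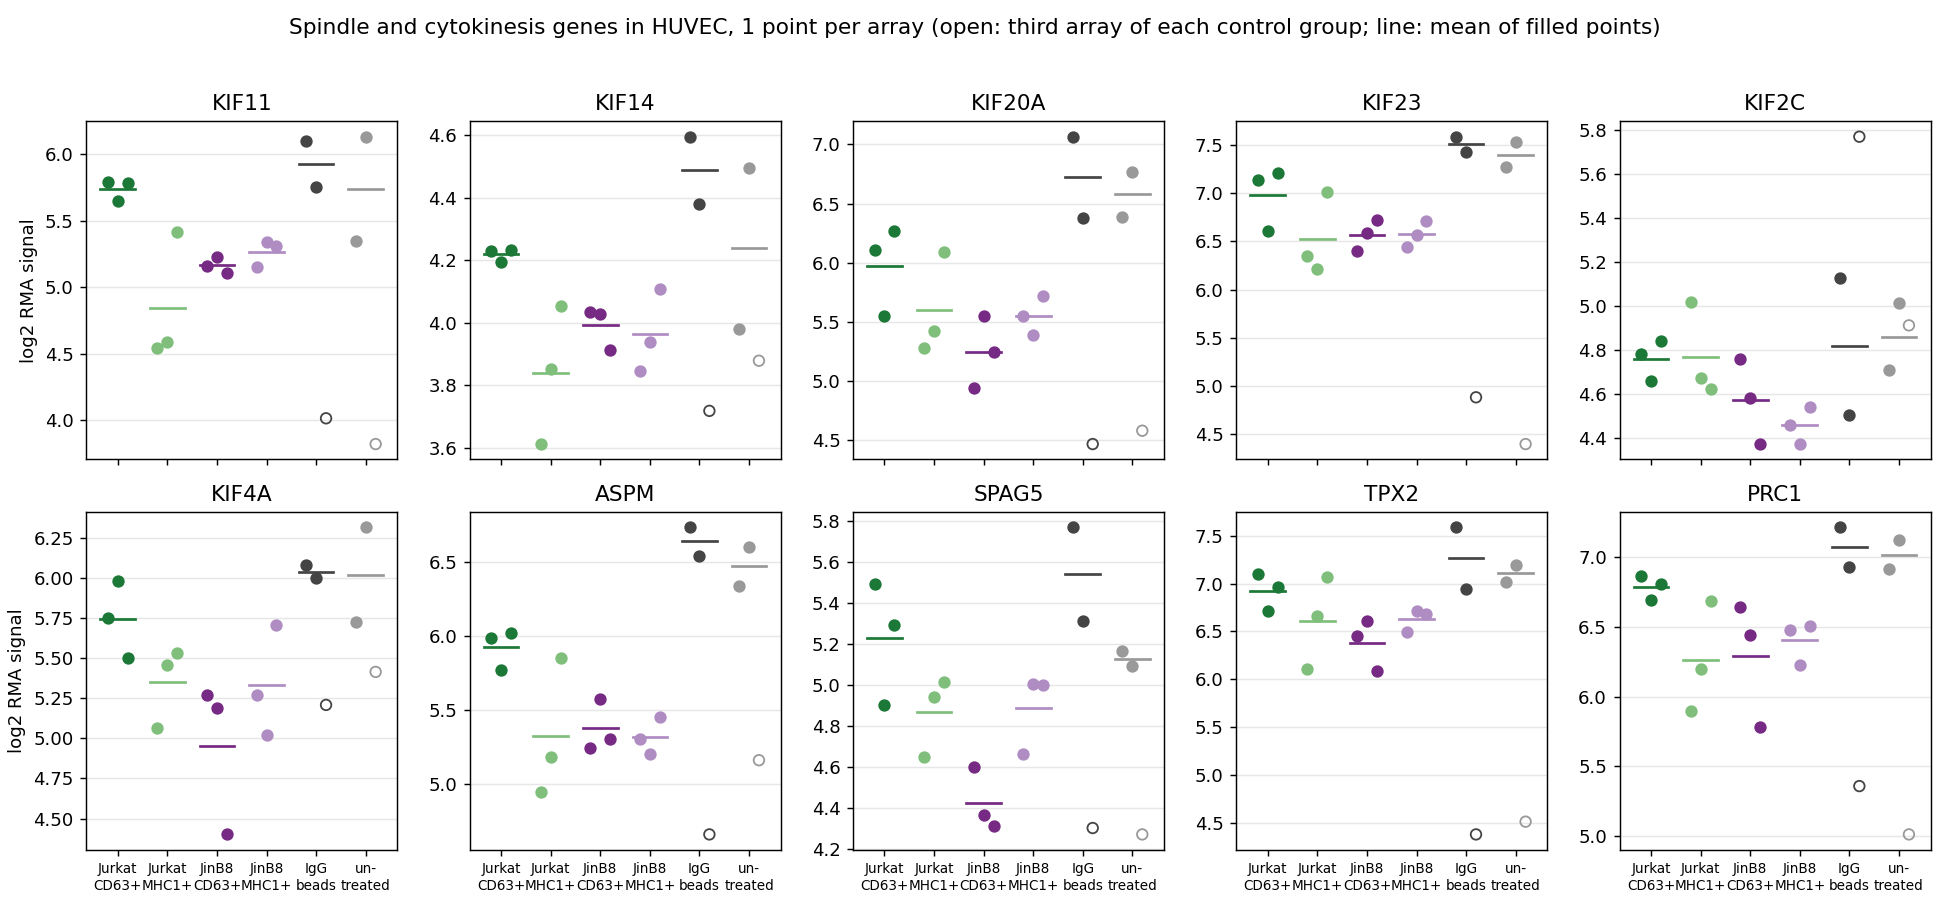
Deposited log2 signal of the 10 genes in every array, with the EV groups at the left and the IgG bead and untreated groups at the right of each panel; lines are means of the filled points, and open points are the third array of each control group. In the ASPM panel the 12 EV arrays lie between 4.95 and 6.02 and the 4 filled control arrays between 6.34 and 6.73, while both open points lie among or below the EV arrays.

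Among the partners, ASPM, which focuses microtubule minus ends at the spindle poles, showed the clearest separation. With Jurkat CD63+ EVs its signal was 5.98, 5.77 and 6.02, with Jurkat MHC1+ EVs 4.95, 5.18 and 5.85, with JinB8 CD63+ EVs 5.24, 5.57 and 5.31, and with JinB8 MHC1+ EVs 5.30, 5.20 and 5.45. With beads it was 6.73, 6.54 and 4.66, and in untreated cells 6.34, 6.60 and 5.16, the last of each being the array that stood apart. All 12 EV arrays lay below the 4 other control arrays. SPAG5, also called astrin, stabilises the attachment of kinetochores to microtubules. Its signal was 5.49, 4.90 and 5.29 with Jurkat CD63+ EVs, 4.65, 4.94 and 5.02 with Jurkat MHC1+ EVs, 4.60, 4.36 and 4.31 with JinB8 CD63+ EVs, and 4.66, 5.00 and 5.00 with JinB8 MHC1+ EVs. With beads it was 5.77, 5.32 and 4.30, and in untreated cells 5.16, 5.09 and 4.27. The JinB8 CD63+ arrays were the lowest of the EV arrays, and the Jurkat CD63+ arrays overlapped with the controls. In the 16 arrays the difference of SPAG5 from beads was -0.69 ± 0.16 (adjusted p = 0.372), and in the 18 arrays -0.28 ± 0.26 (adjusted p = 0.539). A second probe set that SPAG5 shares with the gene RSKR differed by 0.02 ± 0.11 in the 16 arrays.

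TPX2 activates the kinase Aurora A and starts microtubules near chromosomes. It ranged from 6.09 to 7.10 in the 12 EV arrays, with a median of 6.67, and from 6.94 to 7.59 in the 4 concordant control arrays, with a median of 7.11. The 2 ranges overlapped slightly. Its difference from beads was -0.63 ± 0.21 in the 16 arrays (adjusted p = 0.999) and 0.33 ± 0.57 in the 18 arrays (adjusted p = 0.704), so the sign turned with the array that stood apart, where TPX2 was at 4.38. PRC1 cross-links the antiparallel microtubules of the midzone and recruits KIF4A to them. It ranged from 5.78 to 6.86 in the EV arrays, with a median of 6.49, and from 6.91 to 7.22 in the 4 controls, with a median of 7.03, and these ranges did not overlap. Its difference was -0.64 ± 0.20 (adjusted p = 0.994) in the 16 arrays and -0.07 ± 0.41 in the 18 arrays (adjusted p = 0.917).

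Of the motors, KIF20A (MKLP2) carries the Aurora B kinase complex from the chromosomes to the midzone. Its signal was 6.11, 5.55 and 6.27 with Jurkat CD63+ EVs, 5.28, 5.42 and 6.09 with Jurkat MHC1+ EVs, 4.94, 5.55 and 5.24 with JinB8 CD63+ EVs, and 5.55, 5.39 and 5.72 with JinB8 MHC1+ EVs. With beads it was 7.07, 6.38 and 4.47, and in untreated cells 6.39, 6.77 and 4.58. All EV arrays lay below the 4 concordant controls, and the 2 discordant ones lay below every EV array. The difference from beads was -1.13 ± 0.23 in the 16 arrays (adjusted p = 0.208) and -0.38 ± 0.47 in the 18 arrays (adjusted p = 0.611). KIF23 (MKLP1), the motor of the centralspindlin complex that positions the cleavage furrow, separated in the same way. It ranged from 6.21 to 7.20 in the EV arrays, with a median of 6.60, and from 7.27 to 7.59 in the 4 controls, with a median of 7.48. Its difference was -0.85 ± 0.19 in the 16 arrays (adjusted p = 0.316) and 0.03 ± 0.58 in the 18 arrays (adjusted p = 0.975), where the third bead array was at 4.88.

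KIF11 (Eg5) pushes the spindle poles apart by sliding antiparallel microtubules. Its signal was 5.79, 5.65 and 5.78 with Jurkat CD63+ EVs, 4.54, 4.58 and 5.41 with Jurkat MHC1+ EVs, 5.16, 5.23 and 5.11 with JinB8 CD63+ EVs, and 5.15, 5.34 and 5.31 with JinB8 MHC1+ EVs. With beads it was 6.10, 5.75 and 4.01, and in untreated cells 5.35, 6.13 and 3.82. The Jurkat CD63+ arrays lay at the level of the controls, while the other 9 EV arrays lay below all concordant controls but untreated replicate 1. KIF11 differed from beads by -0.67 ± 0.20 in the 16 arrays (adjusted p = 0.917) and by -0.03 ± 0.42 in the 18 arrays (adjusted p = 0.958). KIF4A, a chromosome-bound motor that limits midzone length, ranged from 4.40 to 5.98 in the EV arrays and from 5.72 to 6.32 in the 4 controls. Its difference was -0.69 ± 0.23 (adjusted p = 0.999) in the 16 arrays and -0.42 ± 0.25 in the 18 arrays (adjusted p = 0.525). KIF4A has a near-identical intronless copy, KIF4B, and a probe set that carries both symbols differed by -0.09 ± 0.15 in the 16 arrays.

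KIF14, which works with PRC1 and citron kinase in the last step of cytokinesis, ranged from 3.61 to 4.23 in the EV arrays and from 3.98 to 4.59 in the 4 controls, so the ranges overlapped. Its difference from beads was -0.48 ± 0.14 in the 16 arrays (adjusted p = 0.738) and -0.23 ± 0.18 in the 18 arrays (adjusted p = 0.525). KIF2C (MCAK) differs from the other motors in that it takes microtubule ends apart. It ranged from 4.37 to 5.02 in the EV arrays and from 4.51 to 5.13 in the 4 controls, so the groups overlapped. Its difference was the smallest of the 10 in the 16 arrays, -0.18 ± 0.16 (adjusted p = 0.999), and in the 18 arrays it was -0.49 ± 0.20 (adjusted p = 0.525) with the third bead array at 5.77.

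**Figure D2:**
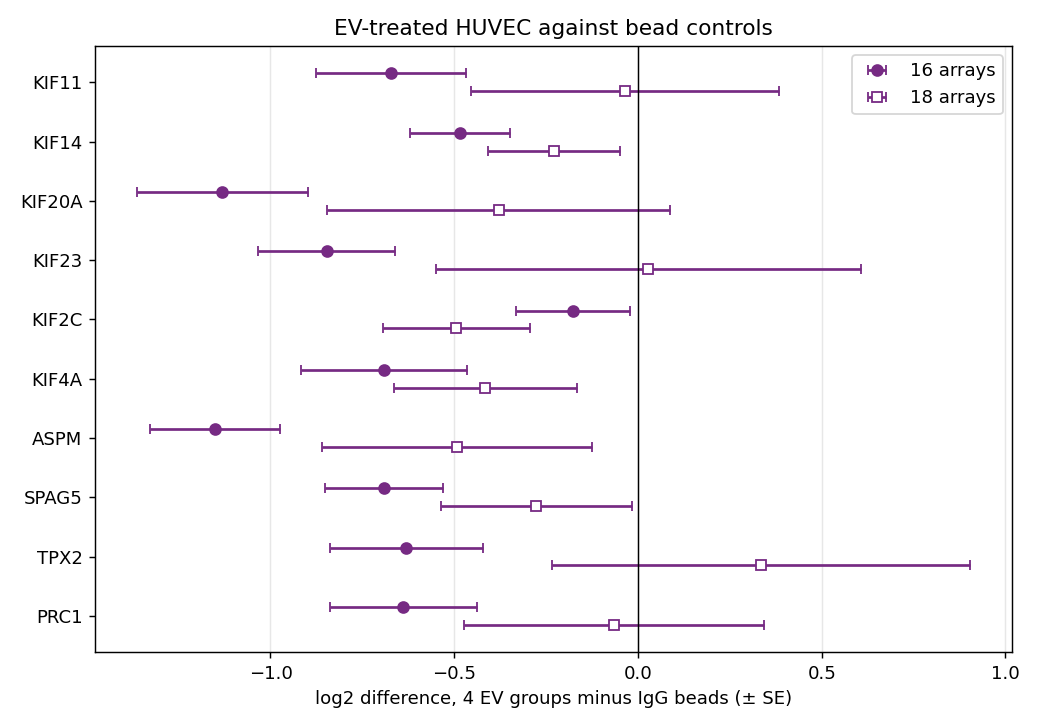
Log2 difference between the 4 EV groups and IgG beads for each gene, with bars of 1 SE, in the 16 arrays (filled circles) and in all 18 arrays (open squares). In the 16 arrays all 10 differences lie between -1.15 and -0.18, and in the 18 arrays they lie between -0.49 and 0.33 with wider bars.

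Counted array by array, all 12 EV arrays lay below all 4 concordant control arrays for ASPM, PRC1, KIF20A and KIF23, 4 of the 10 genes, compared with 0.239% of all genes. They lay below both remaining bead arrays for 6 genes, these 4 with KIF14 and KIF4A, compared with 2.16% of all genes. Set against untreated cells in place of beads, in the 16 arrays, all 10 differences were again negative (52.9% of all genes) with a median of -0.53. None of them was called by limma, 0.00543% of all genes being called lower, and 7 had an unadjusted p below 0.05 (3.04% of all genes). ASPM differed there by -0.98 ± 0.18 (adjusted p = 0.106). Over all 18 arrays 5 of the 10 were negative against untreated cells (56.2% of all genes), with a median of -0.052. SPAG5 (0.010), TPX2 (0.40), PRC1 (0.086), KIF11 (0.15) and KIF23 (0.26) were positive there. Limma called 0 of the 10 and 0.00543% of all genes in that fit, with 0 of the 10 and 5.84% of all genes at an unadjusted p below 0.05. With beads and untreated cells pooled as the control, a choice made after seeing the data, all 10 were negative (49.1% of all genes), 9 had an unadjusted p below 0.05 (4.53% of all genes) and 3 were called lower, compared with 0.0814% of all genes: ASPM by -1.07 ± 0.13 (adjusted p = 0.00246), KIF20A by -1.06 ± 0.18 (adjusted p = 0.0244) and KIF23 by -0.79 ± 0.14 (adjusted p = 0.0414).

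Going by the median of the 10 genes in the 16 arrays, the bead and untreated groups differed less from each other than from the EV groups. SPAG5 and KIF14 differed more between beads and untreated cells (0.41 ± 0.21 and 0.25 ± 0.18) than between EV groups and untreated cells (-0.28 ± 0.16 and -0.23 ± 0.14). In the 16 arrays 9 of the 10 genes were higher with beads than in untreated cells and 1 was negative (53.3% of all genes), with a median difference of 0.15, against -0.01 for all genes. That median was -0.0049 without bead replicate 1, 0.31 without bead replicate 2, -0.031 without untreated replicate 1 and 0.31 without untreated replicate 2. Limma called none of them and 0% of all genes, and none of the 10 had an unadjusted p below 0.05, compared with 1.02% of all genes. The largest difference was that of SPAG5, 0.41 ± 0.21 (adjusted p = 1.00). Over the 18 arrays the median was 0.13 and again 0 genes were called, with 0 of the 10 and 1.11% of all genes at an unadjusted p below 0.05.

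Each EV group was then set against beads on its own. These 4 comparisons share the bead arrays, so their differences are not independent. The median closest to 0 was that of Jurkat CD63+ EVs, -0.30 over the 10 genes in the 16 arrays. It was -0.15 without bead replicate 1 and -0.49 without bead replicate 2. Limma called 0 of them, and 0.00543% of all genes, while ASPM, KIF20A and KIF23 had an unadjusted p below 0.05 (1.55% of all genes). Their differences were -0.71 ± 0.21, -0.75 ± 0.28 and -0.53 ± 0.22. Without bead replicate 1, 1 of the 10 genes had an unadjusted p below 0.05, ASPM, and KIF20A differed by -0.41. Jurkat MHC1+ EVs gave a median of -0.75, with 0 of the 10 and 0% of all genes called, and with 9 of the 10 and 9.33% of all genes at an unadjusted p below 0.05. There ASPM differed by -1.31 ± 0.21 and KIF11 by -1.08 ± 0.24, with adjusted p of 0.159 and 0.467. Without Jurkat MHC1+ replicate 1, the array with the next lowest correlation, this median was -0.60.

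The lowest median was that of JinB8 CD63+ EVs, -0.91 over the 10 genes, although 6 of the 10 genes had their lowest group mean with other EVs. ASPM fell by 1.26 ± 0.21 (adjusted p = 0.0370) and SPAG5 by 1.12 ± 0.19 (adjusted p = 0.0416), 2.40-fold and 2.17-fold lower. These 2 of the 10 genes compare with 0.0652% of all genes called lower. In either direction 0.0923% were called, and at an unadjusted p below 0.05 were 9 of the 10 genes and 6.7% of all genes, or 5 of the 10 (492 of all genes) without bead replicate 1. KIF20A differed by -1.48 ± 0.28 and KIF4A by -1.08 ± 0.27, with adjusted p of 0.0794 and 0.289. In this comparison the probe set that SPAG5 shares with RSKR differed by 0.07 ± 0.13. The probe set that KIF4A shares with KIF4B differed by -0.09 ± 0.18. With JinB8 MHC1+ EVs the median was -0.66 and ASPM alone was called, at -1.32 ± 0.21 (adjusted p = 0.0151), compared with 0.0163% of all genes called lower and 0.212% in either direction. Here too 9 of the 10 genes had an unadjusted p below 0.05 (5.18% of all genes), or 3 of the 10 without bead replicate 1 (1089 of all genes). KIF20A differed there by -1.17 ± 0.28 (adjusted p = 0.173). The calls in both JinB8 groups were lost without either bead array and when the 16 arrays were centred or quantile normalized again, and the 2 calls with JinB8 CD63+ EVs were also lost without untreated replicate 1 or 2. With JinB8 CD63+ EVs the adjusted p of ASPM was 0.968 without bead replicate 1, 0.218 without bead replicate 2 and 0.0534 without either untreated array, and that of SPAG5 was 1.00, 0.147 and 0.0732. With JinB8 MHC1+ EVs the adjusted p of ASPM was 0.217 without bead replicate 1 and 0.181 without bead replicate 2. Centring gave adjusted p of 0.138, 0.134 and 0.0896 for these 3 calls, and quantile normalization 0.0649, 0.0535 and 0.0555. Over the 18 arrays 0 of the 10 genes were called by limma in each of the 4 EV groups and at most 0.0434% of all genes. The medians were then 0.05 with Jurkat CD63+, -0.37 with Jurkat MHC1+, -0.40 with JinB8 CD63+ and -0.25 with JinB8 MHC1+ EVs, and 0, 0, 3 and 1 of the 10 genes had an unadjusted p below 0.05, compared with 1.06%, 1.19%, 1.48% and 5.04% of all genes in the same order.

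**Figure D3:**
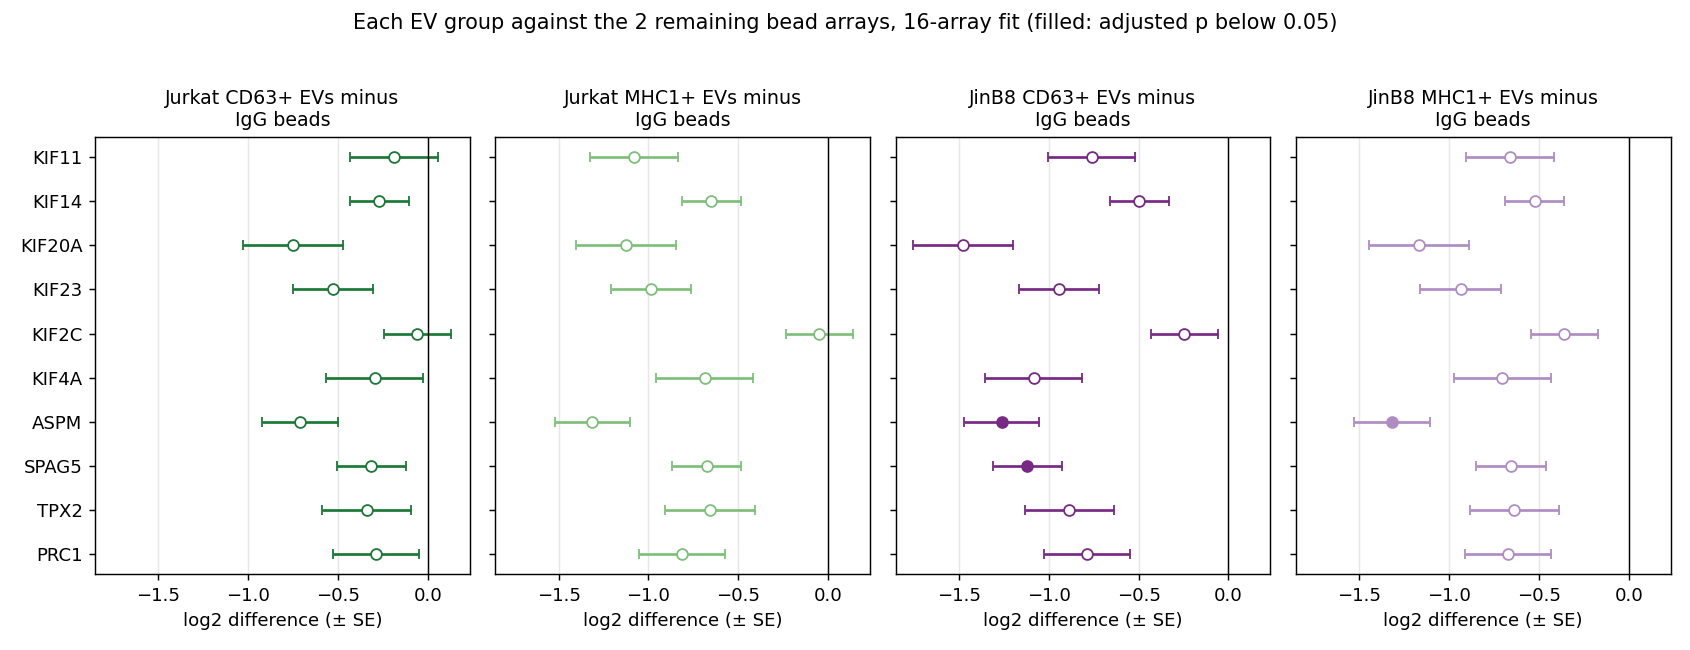
Log2 difference of each EV group from IgG beads in the 16-array fit, with bars of 1 SE; filled points have an adjusted p below 0.05. The median is closest to 0 in the Jurkat CD63+ panel (-0.30) and lowest in the JinB8 CD63+ panel (-0.91), which has filled points for ASPM and SPAG5.

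Against the 4 concordant control arrays together, all 3 Jurkat CD63+ arrays were lower for 4 of the 10 genes (2.6% of all genes) and all 3 Jurkat MHC1+ arrays for 6 (2.38%). The JinB8 CD63+ arrays were lower for 8 (4.52%) and the JinB8 MHC1+ arrays for 8 (9.36%). Ranked by their means over the 16 arrays, the bead group was the highest of the 6 groups for 9 genes, and for KIF2C it was untreated cells. Jurkat CD63+ ranked at place 3 for 8 genes, place 2 for SPAG5 and place 4 for KIF2C. The other 3 EV groups shared the lowest place, Jurkat MHC1+ for 4 genes, JinB8 CD63+ for 4 and JinB8 MHC1+ for 2, and their arrays overlapped for most genes, SPAG5 and KIF2C being exceptions. In the test for any difference among the 6 groups, ASPM was called in the 16 arrays (adjusted p = 0.0145, 0.233% of all genes called) with 9 of the 10 and 8.07% of all genes at an unadjusted p below 0.05. This call was lost without bead replicate 1, bead replicate 2 or untreated replicate 2 and when the arrays were centred, where the smallest adjusted p among the 10 genes was 0.0904, 0.0659, 0.0630 and 0.0862. Called were 0 of the 10 genes in the 18 arrays (0.0109% of all genes), and 0 of the 10 and 1.09% of all genes had an unadjusted p below 0.05.

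Differences between the EV groups contain no control array. The control arrays that stood apart enter these tests through the shared estimate of spread. Any effect of theirs on the EV values through the authors' RMA processing was not tested. Within CD63+ EVs, HUVEC with JinB8 EVs had lower values than HUVEC with Jurkat EVs for all 10 genes, by a median of 0.55, against -0.02 for all genes, of which 53.3% were negative. The differences were -0.80 ± 0.17 for SPAG5, -0.79 ± 0.24 for KIF4A, -0.73 ± 0.25 for KIF20A and -0.58 ± 0.22 for KIF11 in the 16-array fit. All 3 JinB8 arrays lay below all 3 Jurkat arrays for 7 genes (ASPM, SPAG5, TPX2, PRC1, KIF11, KIF14 and KIF4A), compared with 5.06% of all genes. None of the 10 was called by limma, nor any other gene (0%), with an adjusted p of 0.874 for each of the 10. At an unadjusted p below 0.05 were 7 of the 10 genes in the 16-array fit and 4.02% of all genes, and 2 of the 10 in the 18-array fit and 0.255% of all genes. Leaving out 1 array at a time, the median of the 10 genes stayed between -0.63 and -0.49. Single genes moved more: PRC1 ran from -0.68 to -0.25, KIF2C from -0.28 to -0.089 and KIF4A from -0.95 to -0.51. The -0.51 of KIF4A was without JinB8 CD63+ replicate 3.

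Within MHC1+ EVs no such shift was seen. The median difference between JinB8 and Jurkat EVs was 0.02, with 4 of the 10 genes negative (57.1% of all genes), and the values ran from -0.31 ± 0.17 for KIF2C to 0.42 ± 0.22 for KIF11. Limma called 0 of the 10 in both fits and 0.386% of all genes in the 16-array fit, where 0 of the 10 and 29.6% of all genes had an unadjusted p below 0.05. In the 18-array fit 0.0326% of all genes were called, with 0 of the 10 and 3.43% of all genes at an unadjusted p below 0.05. Without Jurkat MHC1+ replicate 1 this median was -0.12, and without Jurkat MHC1+ replicate 3 it was 0.24. The difference between the 2 contrasts, that in CD63+ minus that in MHC1+ EVs, was tested directly. It was negative for 9 of the 10 genes (45.4% of all genes), with a median of -0.60, against 0.06 for all genes. It was largest for KIF11 (-0.996 ± 0.31) and SPAG5 (-0.82 ± 0.24), both with an adjusted p of 0.138. Limma called 0 of the 10 and 0.0163% of all genes, and 3 of the 10 had an unadjusted p below 0.05, compared with 28.7% of all genes. That count of 3, close to the share of all genes, was 7 when the 16 arrays were centred and 6 when they were quantile normalized again. It was 2 without Jurkat MHC1+ replicate 1. Shares of all genes under these other settings are not given here, so the counts are not a result about the 10 genes. Marker lists of other cell types had positive medians in this contrast, 0.31 for 11 T cell markers (1 negative), 0.33 for 9 of fibroblasts and smooth muscle (2 negative), 0.36 for 6 monocyte markers (1 negative) and 0.16 for 6 epithelial markers (0 negative), against -0.12 for 12 endothelial markers (8 negative). Their part in the result was not tested. In the 18 arrays 0 of the 10 and 0% of all genes were called, with 0 of the 10 and 2.44% of all genes at an unadjusted p below 0.05.

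**Figure D4:**
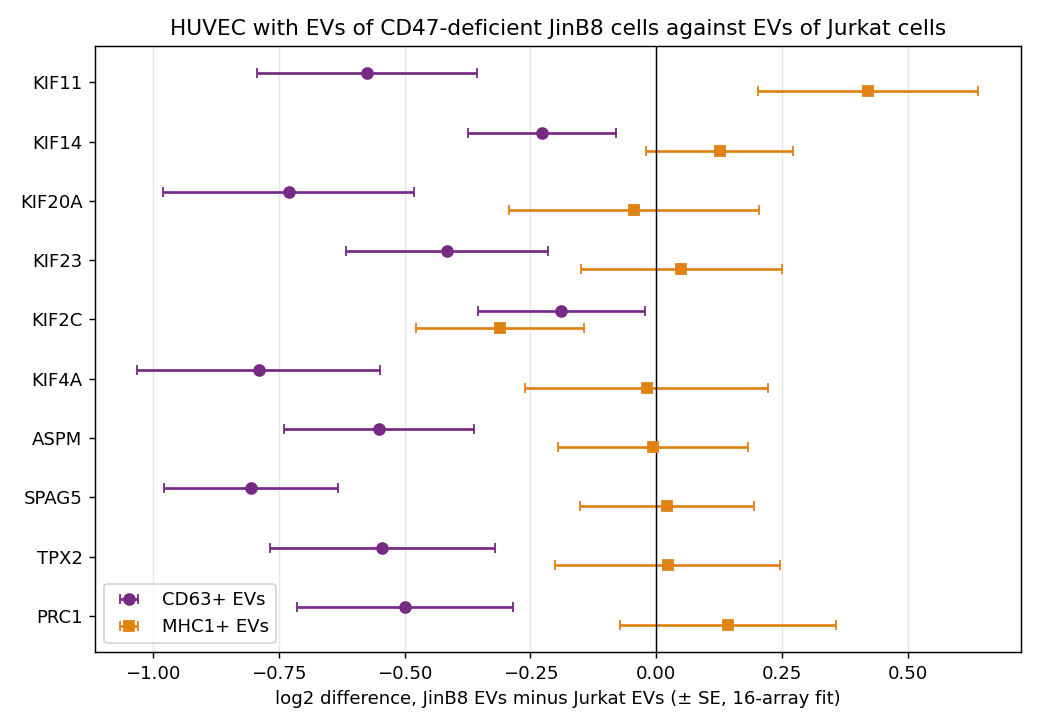
Log2 difference between HUVEC with JinB8 EVs and HUVEC with Jurkat EVs for each gene, with bars of 1 SE from the 16-array fit, within CD63+ EVs (circles) and MHC1+ EVs (squares). The circles all lie below 0, with a median of -0.55, and the squares lie on both sides of 0, with a median of 0.02.

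Between captures of Jurkat EVs, the CD63+ group had higher values than the MHC1+ group for 9 of the 10 genes and a lower one for 1 (53.1% of all genes), with a median difference of 0.39, against -0.02 for all genes. Without Jurkat MHC1+ replicate 1 this median was 0.26, and without Jurkat MHC1+ replicate 3 it was 0.58. KIF11 differed most, by 0.89 ± 0.22, and ASPM by 0.60 ± 0.19, each with an adjusted p of 0.415 in the 16-array fit. All Jurkat CD63+ arrays lay above all Jurkat MHC1+ arrays for PRC1, KIF11 and KIF14, 3 genes, compared with 5.92% of all genes. Called by limma were 0 of the 10 and 0.00543% of all genes, with 5 of the 10 and 11% of all genes at an unadjusted p below 0.05, or 2 of the 10 (415 of all genes) without Jurkat MHC1+ replicate 1. Of the marker lists, 8 of 9 genes of fibroblasts and smooth muscle were negative in this contrast (median -0.28), as were 6 of 6 monocyte (-0.16), 8 of 11 T cell (-0.093), 4 of 6 epithelial (-0.074) and 5 of 12 endothelial markers (0.094). Their part was not tested. The 18-array fit called 0 of the 10 and 0% of all genes, with 0 of the 10 and 0.44% of all genes at an unadjusted p below 0.05. Between captures of JinB8 EVs the median difference was -0.11 and 7 of the 10 were negative (46% of all genes). SPAG5 stood out there, at -0.46 ± 0.17 (adjusted p = 0.249), with all JinB8 CD63+ arrays below all JinB8 MHC1+ arrays, which held for 1 of the 10 genes and 12.8% of all genes. By limma, 0 of the 10 and 0.185% of all genes were called in the 16-array fit, where 1 of the 10 and 16.6% of all genes had an unadjusted p below 0.05. In the 18-array fit 0 of the 10 and 0.00543% of all genes were called, and 0 of the 10 and 1.7% of all genes had an unadjusted p below 0.05.

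Other genes of the same processes were read from lists drawn up by function. Of 35 other genes of the spindle and cytokinesis, 34 were lower in the EV groups than with beads in the 16 arrays (45.9% of all genes). Their median was -0.32. Limma called 0 of these 35 (0.0434% of all genes), and 13 had an unadjusted p below 0.05 (3.21% of all genes). Lowest by p were PLK1, a kinase of mitotic entry, at -0.66 ± 0.14, the kinetochore motor CENPE at -0.85 ± 0.19, the spindle protein DLGAP5 at -0.98 ± 0.22 and the midbody protein CEP55 at -0.57 ± 0.13, with adjusted p from 0.235 to 0.370. In the 18 arrays 25 of the 35 were negative (55% of all genes), with a median of -0.17 and 0 calls. There 4 had an unadjusted p below 0.05 (3.83% of all genes).

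Measured were 19 regulators that act on these promoters or on the cell cycle arrest upstream of them. Of these, 15 were negative in the 16 arrays (45.9% of all genes), with a median of -0.09. Limma called 0 against beads, and 3 had an unadjusted p below 0.05 (3.21% of all genes). FOXM1, the activator that joins the MYB-MuvB complex, differed by -0.68 ± 0.14 (adjusted p = 0.220) and was called in the test for any difference among the 6 groups (adjusted p = 0.0475). In that test over the 16 arrays limma called 1 of the 19 regulators and 0.233% of all genes. An unadjusted p below 0.05 was found there for 2 of the 19 and 8.07% of all genes. Whether the call of FOXM1 holds without single arrays was not tested. MYBL2, the MYB subunit of that complex, differed by -0.37 ± 0.13 and the cyclin kinase inhibitor CDKN1A (p21) by 0.31 ± 0.13, each with an adjusted p of 0.999. In the 18 arrays the median of these regulators was 0.08, with 0 called and 1 at an unadjusted p below 0.05 (3.83% of all genes).

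The transport kinesins had no shared direction. Of 23 kinesins and kinesin light chains that carry cargo rather than act in mitosis, 11 were negative in the 16 arrays (45.9% of all genes). Their median was 0.01. Limma called 0 of them, and 3 had an unadjusted p below 0.05 (3.21% of all genes): KIF21A at -0.44 ± 0.13, KIF13A at -0.26 ± 0.11 and KIF5B at -0.34 ± 0.16. Of 18 genes of the G1/S step and DNA replication, 17 were negative (45.9% of all genes) with a median of -0.15. Limma called 0 of the 18, and 3 had an unadjusted p below 0.05 (3.21% of all genes). RRM2, a subunit of ribonucleotide reductase, differed by -0.55 ± 0.19 and the helicase subunit MCM4 by -0.51 ± 0.19. In the 18 arrays the medians were 0.02 for the transport kinesins and -0.0043 for the G1/S genes, with 0 called in either list. There 2 and 1 had an unadjusted p below 0.05 (3.83% of all genes). In the comparison of JinB8 with Jurkat CD63+ EVs, 32 of the 35 other spindle genes were negative (median -0.27) and all 18 of the G1/S genes (median -0.25). This compares with 13 of the 23 transport kinesins (median -0.05) and 53.3% of all genes. In the 16-array fit 0 were called in each list, and 8, 1 and 1 had an unadjusted p below 0.05 (4.02% of all genes).

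**Figure D5:**
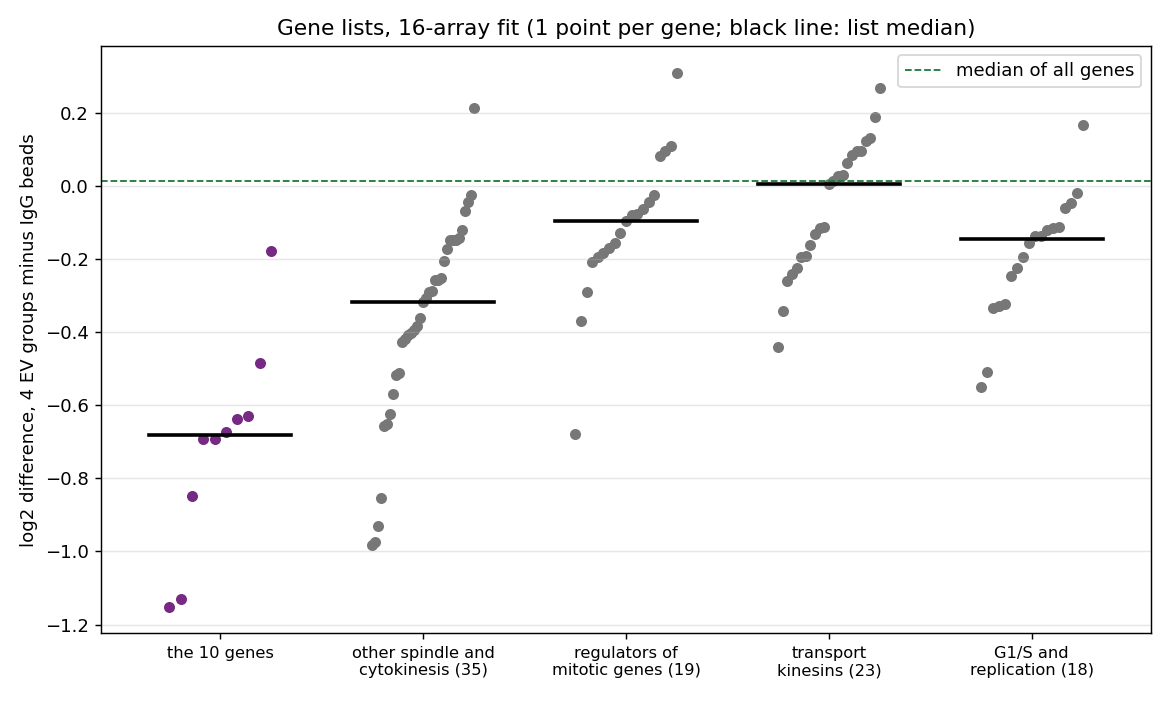
Log2 difference between the 4 EV groups and IgG beads in the 16-array fit, 1 point per gene, for the 10 spindle and cytokinesis genes and 4 other lists; black lines are list medians and the dashed line is the median of all genes. The medians are -0.68 for the 10 genes, -0.32 for the other spindle and cytokinesis genes, -0.09 for the regulators, 0.01 for the transport kinesins and -0.15 for the G1/S genes.

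Against beads in the 16 arrays, marker lists of cell types had medians nearer 0 than the 10 genes. The median difference of EV groups from beads was -0.08 for 12 endothelial markers, 0.04 for 11 T cell markers, 0.08 for 9 markers of fibroblasts and smooth muscle, 0.05 for 6 monocyte markers and 0.03 for 6 epithelial markers. Limma called 0 genes of these 5 lists. An unadjusted p below 0.05 was found for 2 of their genes, 1 endothelial and 1 of fibroblasts and smooth muscle (3.21% of all genes). The summed level of the endothelial list, as its mean per array, ran from 8.92 to 9.08 in the EV arrays and from 8.94 to 9.09 in the 4 concordant controls. That of the T cell list ran from 3.87 to 4.34 in the EV arrays and from 3.91 to 4.09 in the controls. Over the 18 arrays, with the bead array that stood apart, the medians were 1.01 for the endothelial, -0.35 for the T cell, -0.14 for the fibroblast and smooth muscle, -0.27 for the monocyte and -0.28 for the epithelial list. There 0 of their genes were called by limma, and 1 had an unadjusted p below 0.05 (3.83% of all genes).

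The genes most like the 10 over the 16 arrays, by Pearson correlation with the mean of the 10, were DLGAP5 (0.95), the DNA topoisomerase TOP2A (0.95), the kinetochore protein CENPF (0.95), cyclin A2 (CCNA2, 0.94) and the checkpoint kinase BUB1 (0.94). Across the other 18407 genes the 95th percentile of this correlation was 0.63.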

How the data were processed

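The deposited values are log2 signals per probe set, made by the authors with Affymetrix Expression Console and RMA, per the submitters' processing notes (versions not given in the sources used here); the log2 scale was read from their range. Per the labels' protocols, 300 ng of RNA was labelled per array. Of 33297 probe sets, 19460 carried 1 gene symbol; the probe set with the highest mean was kept for each of 18417 genes. Differences were fitted with limma 3.58.1 in R 4.3.3 (1 mean per group, empirical Bayes, Benjamini-Hochberg over all genes, called at an adjusted p below 0.05) over 18 arrays, and over 16 without the third array of both control groups. The fit was also run on simulated data whose spread was taken from the 16 arrays. That run does not show what the fit can detect in the real 18 arrays, where the spread is larger. The comparison of EVs with beads averages the 4 EV groups. The number of arrays limits the precision. Replicates were numbered in the order of deposition. No 2 arrays held identical values. The 10 genes and all gene lists were chosen with earlier results of these data known. All 10 genes are named, and of each other list those called and otherwise up to 4 by smallest p against beads in the 16 arrays; likeness names the 5 genes with the highest correlation. Promoter windows are RefSeq's, build GRCh38.p14; positions count from 1 at the first transcribed base and from -1 before it. Alternatives covered arrays left out, normalization, filters, variance model, array weights and the control group.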

Additional observations from a re-analysis of the deposited data

How the results depend on the processing

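No paired analysis was possible because the labels give no replicate numbers that groups share. The alternatives over 16 arrays that also change the normalization, the control group or a control array were chosen after seeing the data. Counts in this paragraph are of the 10 genes called by limma, 0 in every comparison over the 18 arrays without weights, and leaving out 1 array at a time from the 18 kept every one of these counts at 0 (lowest 0, highest 0). Against beads, the EV groups together had 1 gene called in 16 arrays, 1 in 15 arrays (also without Jurkat MHC1+ replicate 1), 3 with array weights, 3 with beads and untreated cells together as the control in 16 arrays, and 1 in the 16 arrays without untreated replicate 1 or 2. Jurkat MHC1+ EVs had 6 with array weights. JinB8 CD63+ EVs had 2 in 16 arrays, 3 in 15 arrays and 3 with array weights. JinB8 MHC1+ EVs had 1 in 16 arrays, 1 in 15 arrays, 8 with array weights and 1 in the 16 arrays without untreated replicate 1 or 2. With array weights, JinB8 against Jurkat had 1 within MHC1+ EVs, CD63+ against MHC1+ had 2 within Jurkat EVs, and the difference between the contrasts had 5. The test over 6 groups had 1 in 16 arrays, 3 in 15 arrays, 9 with array weights, 1 in 16 arrays quantile normalized again and 1 in 16 arrays without untreated replicate 1. The weights of the third bead and untreated arrays were 0.0199 and 0.0239, against 0.187 or more for the others. Shares of all genes called with array weights, in 15 arrays, quantile normalized again or without an untreated array are not given here. The counts under those settings therefore cannot be read as particular to the 10 genes. Leaving out 1 of the 18 arrays moved the median of the 10 genes against beads between -0.68 (without bead replicate 3) and 0.11 (without bead replicate 1). For beads against untreated cells that median was -0.47 without untreated replicate 3 and 0.71 without bead replicate 3, and ran between these 2 values over all arrays left out. Centring the 18 arrays moved the median of all genes from -0.06 to 0.06 against beads. The filter on dim genes left out KIF14. In the 16 arrays the median of the 10 genes was -0.50 without bead replicate 1 and -0.88 without bead replicate 2.

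Some genes turned sign in the EV groups against beads. For TPX2 and KIF23 leaving out only bead replicate 3 turned it. KIF23 also turned without Jurkat MHC1+ replicate 3 (-0.033), and KIF11 without Jurkat MHC1+ replicate 1 (0.0033). Why the sign turned under the other settings was not tested. SPAG5 was 0.010 with untreated cells as the control and ran from -0.69 to 0.045 leaving out 1 array (the highest without bead replicate 1). TPX2 was -0.63 in 16 arrays, -0.57 in 15, -0.44 with array weights, -0.47 against untreated cells and -0.55 against both controls in 16 arrays, -0.64 centred, -0.59 quantile normalized again, and -0.31 and -0.95 in 16 arrays without bead replicate 1 or 2. Leaving out 1 of the 18 arrays, TPX2 ran from -0.63 to 0.98. PRC1 was 0.054 with quantile normalization, 0.050 centred and 0.086 against untreated cells, and ran from -0.64 to 0.29 leaving out 1 array. KIF11 was 0.19, 0.081 and 0.15 under the same 3 settings and ran from -0.67 to 0.37. KIF20A ran from -1.13 to 0.17 leaving out 1 array. KIF23 was -0.85 in 16 arrays, -0.83 in 15, -0.86 with array weights, -0.74 and -0.79 against untreated cells and both controls in 16 arrays, -0.85 centred, -0.80 quantile normalized again, and -0.77 and -0.92 in 16 arrays without bead replicate 1 or 2. Leaving out 1 of the 18 arrays, KIF23 ran from -0.85 to 0.50. KIF2C was 0.13 in 16 arrays without bead replicate 1.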

Other observations

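Other genes were also compared with the mean of the 10 spindle genes within the 12 EV arrays alone. The most alike were SYTL4 (Pearson r = 0.94), a synaptotagmin-like protein of vesicle docking, and PTGS1 (0.93), the enzyme cyclooxygenase of prostanoid synthesis. Next came RAPGEF6 (0.92), an exchange factor for Rap proteins, NUF2 (0.92), a subunit of the outer kinetochore, and HELLS (0.91), a chromatin remodelling helicase. The 95th percentile over the other 18407 genes was 0.67, and the mean of the 10 genes correlated with the spread of signal of these arrays with r = 0.58. These correlations describe 12 arrays of 4 groups and carry no test.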
